A study of Mus musculus with 6 samples.

Results

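The genes described here are the chloride cotransporters and the WNK kinase cascade that controls them. The 9 genes are Slc12a2, Slc12a4, Slc12a5, Slc12a7, Wnk1, Wnk2, Wnk3, Stk39 and Oxsr1. They were taken by name from a table of 55367 gene names, and all 9 were among the 16976 genes with enough counts to be tested. RNA-seq of polyA RNA was performed on cortical neurons of C57BL/6J mice, prepared from pups at postnatal day 1 and cultured for 2 days in vitro. There were 3 libraries from wild-type (WT) mice and 3 from Fmr1-KO mice, which lack FMRP, the RNA-binding protein missing in fragile X syndrome. According to the study's methods, ACSA2-positive astrocytes and myelin were depleted before plating and samples were independently derived. The labels name no litter or culture, so the P values set the difference between genotypes against the spread between these libraries. That spread was small, at a common variation of 3.22% beyond counting error by edgeR. Whether it covers the spread between animals or litters is not shown by the labels.

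GABA opens a chloride channel, and the direction in which chloride then flows depends on how much chloride the neuron holds. NKCC1, encoded by Slc12a2, carries sodium, potassium and chloride into the cell, whereas the KCC proteins carry potassium and chloride out. KCC2, encoded by Slc12a5, is the neuronal exporter, and its rise during maturation is known to turn the GABA response from depolarizing to hyperpolarizing. WNK kinases sense chloride and activate the kinases SPAK (Stk39) and OSR1 (Oxsr1), which phosphorylate both classes of transporter, switching NKCC1 on and the KCC proteins off. None of this activity is visible in RNA counts, which report transcript levels only.

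Library totals ran from 30348556 to 35126207 counts. Fmr1, the targeted gene, had 3656 to 4113 counts in the WT libraries and 1761 to 1972 counts in the Fmr1-KO libraries, with no overlap. Markers of neurons were abundant. The 13 pan-neuronal genes summed to 5788 to 5919 CPM (counts scaled to a common library size) in WT and 4846 to 5082 CPM in Fmr1-KO. RNA of other cell types was also present, and no marker gene on the lists used here was at 0 in every library. Astrocyte RNA was abundant even after the depletion, with 8 marker genes summing to 4294 to 4426 CPM in WT and 3690 to 4033 CPM in Fmr1-KO. Gfap, an astrocyte marker, was alone at 2649 ± 67.0 CPM in WT and 2297 ± 158 CPM in Fmr1-KO (SD, n = 3 each). Xist, which is transcribed from the inactive X chromosome of females, was at 306 ± 7.34 CPM in WT and 916 ± 96.4 CPM in Fmr1-KO (SD, n = 3 each). The sex of the pups is not given in the labels.

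By edgeR, 6 of the 9 genes passed an adjusted P of 0.05, of which 3 decreased and 3 increased in Fmr1-KO. Across all genes tested, 42.6% passed this threshold, 21.9% lower and 20.7% higher, and among genes of at least 10 CPM on average, where all 9 lie, 51.0% passed. The balance of lower and higher calls depends on the scaling: 3725 genes were lower and 3506 higher here, against 3212 and 4207 with library totals alone and 3517 and 3743 with upper-quartile normalization. The share of the 9 genes called, 66.7%, is read against these background shares. The changes differed widely in size. Slc12a5 fell to 47.1% of its WT level, Slc12a7 rose to 129.7%, and the other 7 genes stayed between 91.6% and 110.6% of WT. A test for a change above 1.2-fold was passed by Slc12a5 and Slc12a7, 2 of the 9, against 13.1% of all genes tested. The libraries of the 2 genotypes did not overlap for 6 of the 9 genes, the same 6 that were called, and for 51.7% of all genes tested.

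**Figure D1:**
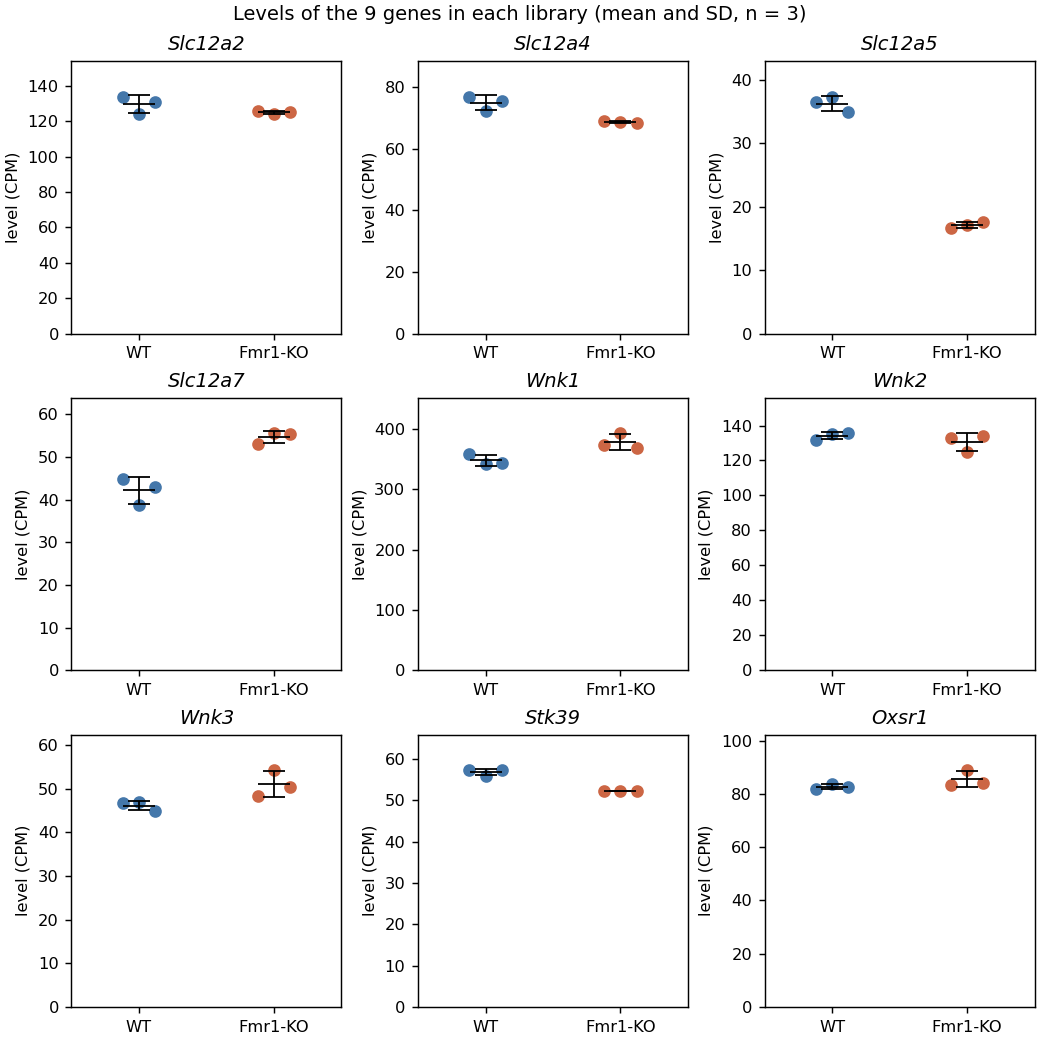
Level of each of the 9 genes in TMM-scaled CPM (vertical axes, starting at 0) in WT and Fmr1-KO; each point is 1 library, and black marks give the mean and SD (n = 3). Slc12a5 sits at 34.9 to 37.4 CPM in WT and at 16.6 to 17.6 CPM in Fmr1-KO, while the other genes differ far less between genotypes.

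The exporters were examined first. Slc12a5 lies on the plus strand of chromosome 2, from 164960802 to 164999731 (GRCm38). Its raw values were 1270, 1236 and 1166 counts in WT replicates 1, 2 and 3, and 539, 523 and 613 counts in the Fmr1-KO replicates. After scaling these were 36.5, 37.4 and 34.9 CPM in WT and 16.6, 17.1 and 17.6 CPM in Fmr1-KO. Every Fmr1-KO library lay below every WT library, and the gap between the genotypes was many times the spread within either. Mean levels were 36.3 ± 1.24 CPM in WT and 17.1 ± 0.521 CPM in Fmr1-KO (SD, 3 libraries each). This is a log2 fold-change of -1.09 (SE 0.05), with a Benjamini-Hochberg adjusted P of 1.01e-12 in the quasi-likelihood test of edgeR. Only 1.67% of all genes tested had a lower log2 fold-change. The smallest count, 523, carries a counting error of 4.37%, so counting noise is small beside the difference. In bulk RNA, fewer cells that express a gene and less of its RNA per cell cannot be told apart. Of the 9 genes, Slc12a5 is also the one whose name is on the list of NMD targets that the study drew up in N2A neuroblastoma cells.

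Slc12a5 has 2 start sites in RefSeq, and the windows before them are shown because this gene changed most. The first window is chr2:164960596-164960845 and the second chr2:164967738-164967987, both on the plus strand of GRCm38.p6 and printed 5′ to 3′. They hold the 250 bases before each start. Capitals mark CACGTG, the E-box bound by USF factors, which reads the same on both strands.
Slc12a5, upstream start: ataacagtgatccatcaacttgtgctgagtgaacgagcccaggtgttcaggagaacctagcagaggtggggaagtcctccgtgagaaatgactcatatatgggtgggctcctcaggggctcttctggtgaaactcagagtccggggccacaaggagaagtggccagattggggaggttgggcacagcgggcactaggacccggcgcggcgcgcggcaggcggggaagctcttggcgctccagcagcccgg
Slc12a5, downstream start: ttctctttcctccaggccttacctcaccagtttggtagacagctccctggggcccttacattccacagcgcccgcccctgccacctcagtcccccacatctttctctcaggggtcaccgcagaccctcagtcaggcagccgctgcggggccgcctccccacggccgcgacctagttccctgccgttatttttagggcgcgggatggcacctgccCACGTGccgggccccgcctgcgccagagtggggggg
The E-box lies in the second window only, with its first base 36 bases before the start. Of 32851 RefSeq windows of this length, 6.02% hold CACGTG. The counts are summed over the gene, so they do not show which start was used.

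Slc12a7 encodes KCC4, an exporter found in many tissues. The gene is on the plus strand of chromosome 13, from 73733094 to 73816754. Its level was 44.8, 38.7 and 43.0 CPM in the WT libraries and 53.0, 55.6 and 55.5 CPM in the Fmr1-KO libraries. All 3 Fmr1-KO libraries were above all 3 WT libraries, and WT replicate 2 was the lowest of the 6. Mean levels were 42.2 ± 3.12 CPM in WT and 54.7 ± 1.43 CPM in Fmr1-KO (SD, 3 libraries each). This increase corresponds to 0.37 on the log2 scale (SE 0.05), with an adjusted P of 1.89e-06 in edgeR. Leaving out WT replicate 2 gave the smallest log2 fold-change of the alternatives, 0.32. A higher log2 fold-change was found for 10.2% of all genes tested.

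Slc12a7 is the other gene with an E-box among those whose windows were read. The 250 bases before its second RefSeq start are therefore shown for comparison with those of Slc12a5. The window is chr13:73763447-73763696, plus strand, GRCm38.p6, with CACGTG in capitals.
Slc12a7, second start: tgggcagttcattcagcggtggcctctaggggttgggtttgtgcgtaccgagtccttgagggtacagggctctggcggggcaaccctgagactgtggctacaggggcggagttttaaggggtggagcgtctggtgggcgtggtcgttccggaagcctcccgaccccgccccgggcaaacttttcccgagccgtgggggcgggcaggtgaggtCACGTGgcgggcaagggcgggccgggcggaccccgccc
Here the first base of the E-box is 38 bases before the start. Windows were read for 8 of the 9 genes, 10 windows in all, and these 2 genes were the ones with an E-box. Slc12a2 was left out of this search, so whether its windows hold an E-box was not examined. The GC box GGGCGG, read on both strands, was found for 6 of the 8 genes, including Slc12a5 and Slc12a7, and in 32.7% of all windows. The EGR core GCGNGGGCG, also read on both strands, was found for 0 of the 8 genes and in 4.70% of all windows. Neither E-box overlapped a GC box. The gene that fell most and the gene that rose most thus share this letter pattern, which is a description of the sequence and not of binding. These 2 genes were also the only ones with 2 windows, which gave them more bases to search, and the windows of Slc12a7 overlap. The shares over all windows are per window, whereas the counts given here are per gene, so they are not directly comparable.

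The third exporter changed less. Slc12a4 encodes KCC1, the broadly expressed exporter that takes part in cell volume control. It lies on the minus strand of chromosome 8, from 105943590 to 105966097. The WT libraries had 76.9, 72.3 and 75.5 CPM and the Fmr1-KO libraries 69.0, 68.5 and 68.3 CPM, so the genotypes did not overlap. The decrease was small, with a log2 fold-change of -0.13 (SE 0.04; adjusted P 0.00772 by edgeR). It did not pass without WT replicate 1 (-0.11, adjusted P 0.0509), while the adjusted P stayed under 0.05 without each other library.

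Slc12a2 encodes NKCC1, the main chloride importer of immature neurons and also a transporter of choroid plexus and progenitor cells. The gene is on the plus strand of chromosome 18, from 57878678 to 57946821. It had 4660, 4102 and 4382 counts in WT and 4091, 3798 and 4368 counts in Fmr1-KO. In CPM these were 134, 124 and 131 in WT and 126, 124 and 126 in Fmr1-KO. The groups overlapped, because WT replicate 2 was level with the Fmr1-KO libraries. Slc12a2 did not pass the threshold (log2 fold-change -0.05, SE 0.03; adjusted P 0.227 by edgeR). The 95% interval ran from -0.12 to 0.02, so changes beyond these bounds lie outside the interval. In the same Fmr1-KO libraries, Slc12a2 was at 96.4% and Slc12a5 at 47.1% of the WT mean.

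The exporter and the importer were then compared within each library, as a ratio of counts per kb of exon that no library scaling can change. The Slc12a5 to Slc12a2 ratio was 0.400, 0.442 and 0.390 in the WT libraries and 0.193, 0.202 and 0.206 in the Fmr1-KO libraries. The lowest WT ratio was above the highest Fmr1-KO ratio. The mean went from 0.411 ± 0.0275 to 0.200 ± 0.00645 (SD, n = 3 per genotype), which is 48.8% of WT. A 2-sided exact permutation test gave P = 0.1, the smallest that 3 against 3 libraries allow. The absolute ratio depends on the length used: with the longest coding transcript of each gene in place of all merged exons, a choice made after seeing the data, it was 0.303 ± 0.0203 in WT and 0.148 ± 0.00476 in Fmr1-KO (SD, n = 3 each).

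**Figure D2:**
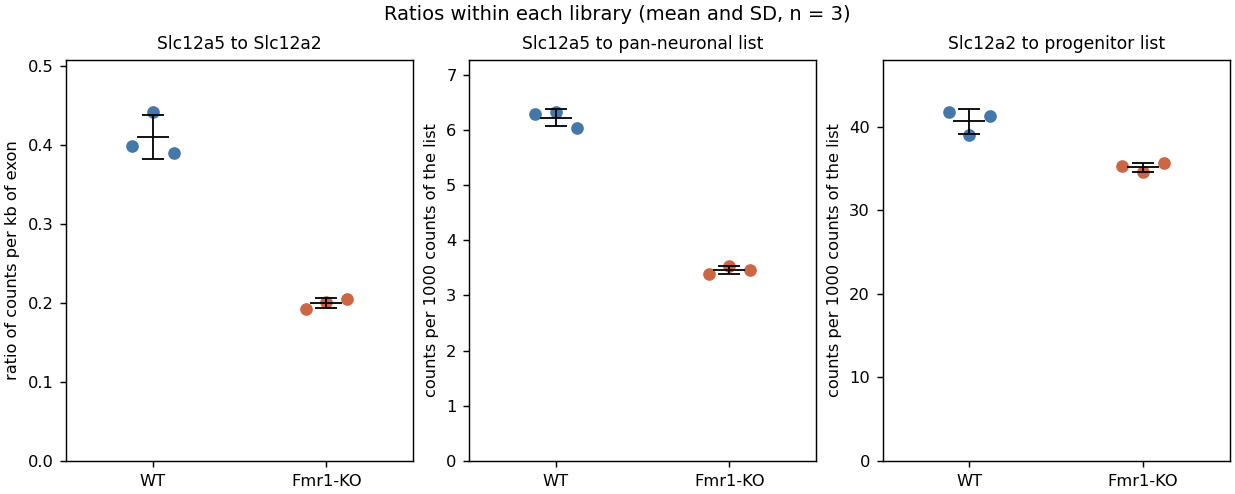
Ratios within each library in WT and Fmr1-KO, as Slc12a5 to Slc12a2 counts per kb of exon (left), Slc12a5 per 1000 counts of the pan-neuronal list (middle) and Slc12a2 per 1000 counts of the progenitor list (right); points are libraries, black marks the mean and SD (n = 3). All 3 ratios are lower in every Fmr1-KO library than in any WT library, with means at 48.8%, 55.7% and 86.5% of WT.

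Slc12a5 was also set against markers of neurons, and Slc12a2 against markers of progenitors, which are among the cells that express it. Of all genes tested, 21.9% were called lower and 20.7% higher, and calls among the markers are read against these shares. Of the 13 pan-neuronal genes, 11 were called lower and 1, the immature neuron gene Dcx, was called higher, with a median log2 fold-change of -0.63. Slc12a5 made up 6.30, 6.32 and 6.04 counts per 1000 counts of this list in WT and 3.39, 3.53 and 3.47 in Fmr1-KO. Slc12a5 was thus lower relative to the summed neuronal markers as well, at 55.7% of the WT ratio (exact permutation test, 2-sided, n = 3 per genotype, P = 0.1, the smallest possible). The log2 difference of this ratio was -0.85, and it was -0.44 against the mean log2 CPM of the list, in which its weaker genes weigh as much as its strong ones. Nefl and Nefm, the neurofilament genes on this list, had log2 fold-changes of -1.90 and -1.35, below that of Slc12a5.

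Progenitor markers summed to 3181 to 3212 CPM in WT and 3521 to 3588 CPM in Fmr1-KO. Of these 9 genes, 4 were called higher and the other 5 did not pass (median log2 fold-change 0.20), while 20.7% of all genes tested were called higher. Slc12a2 was at 41.8, 39.0 and 41.3 counts per 1000 counts of this list in WT and at 35.3, 34.6 and 35.7 in Fmr1-KO. The ratio was 86.5% of WT (exact permutation test, 2-sided, n = 3 per genotype, P = 0.1, the smallest possible). Against the mean log2 CPM of the list the difference was -0.48 in place of -0.21. The summed markers were higher in every Fmr1-KO library, while Slc12a2 itself was at 96.4% of the WT mean and did not pass. Of 11 proliferation genes, 11 were called higher, with sums of 613 to 649 CPM in WT and 1040 to 1096 CPM in Fmr1-KO. Of 8 choroid plexus and ependyma markers, 6 were called higher, with sums of 1156 to 1216 CPM in WT and 1611 to 1922 CPM in Fmr1-KO. The part of these shifts in the levels of the 9 genes was not tested.

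The kinases of the cascade followed. Wnk1, the broadly expressed member mutated in familial hypertension, is on the minus strand of chromosome 6, from 119923969 to 120038672. It had the most counts of the 9 genes, 11324 to 12786 per library. Its level was 358, 343 and 343 CPM in WT and 373, 392 and 367 CPM in Fmr1-KO, which do not overlap. The increase was small as a fold, at a log2 fold-change of 0.12 (SE 0.03; adjusted P 0.00474 by edgeR), and Fmr1-KO replicate 2 was the highest library. The counts do not separate the full-length kinase from the kinase-deficient form that is known in kidney.

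Wnk3, a WNK kinase prominent in brain, spans 151198078 to 151320152 of chromosome X, plus strand. The WT libraries had 46.6, 46.8 and 44.9 CPM and the Fmr1-KO libraries 48.3, 54.2 and 50.4 CPM. Fmr1-KO replicate 2 again stood highest, while Fmr1-KO replicate 1 lay just above the WT range. The increase was 0.14 on the log2 scale (SE 0.05), with an adjusted P of 0.0139 in edgeR. This call was lost without Fmr1-KO replicate 2 (0.10, adjusted P 0.0913) and without WT replicate 3 (0.12, adjusted P 0.0610). Xist, on the same chromosome, was higher in Fmr1-KO by a log2 fold-change of 1.58, and its part in the level of Wnk3 was not tested. Wnk2, on the minus strand of chromosome 13 from 49036303 to 49148014, is another WNK kinase of the brain. It had 132, 135 and 136 CPM in WT and 133, 125 and 134 CPM in Fmr1-KO, so the groups overlapped. Wnk2 did not pass the threshold (log2 fold-change -0.04, 95% interval -0.11 to 0.03; adjusted P 0.412 by edgeR).

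Stk39 encodes SPAK, the kinase that docks on the cotransporters. It lies on the minus strand of chromosome 2, from 68210445 to 68472268. The level was 57.2, 55.9 and 57.3 CPM in WT and 52.3, 52.2 and 52.3 CPM in Fmr1-KO. The Fmr1-KO libraries were nearly equal and all below WT. The difference was -0.12 on the log2 scale (SE 0.04), with an adjusted P of 0.0138 in edgeR. Scaling by library totals in place of TMM made it -0.09 (adjusted P 0.0539). Oxsr1 encodes OSR1, the closest relative of SPAK, and lies on the minus strand of chromosome 9, from 119238432 to 119322427. It was at 81.8, 83.8 and 82.8 CPM in WT and at 83.4, 89.0 and 84.2 CPM in Fmr1-KO, with overlap. Oxsr1 did not pass the threshold (log2 fold-change 0.05, 95% interval -0.03 to 0.12; adjusted P 0.322 by edgeR). In CPM per kb of exon, Stk39 made up 42.6% ± 0.62 of the 2 kinases in WT and 39.8% ± 0.87 in Fmr1-KO (SD, n = 3 each).

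**Figure D3:**
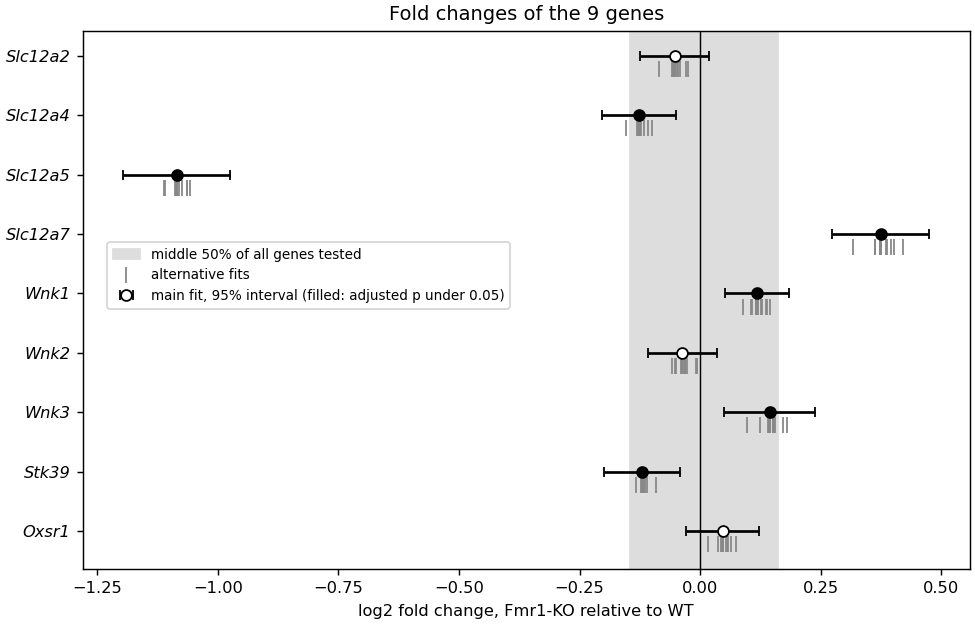
Log2 fold-change of each gene in Fmr1-KO relative to WT (horizontal axis); circles give edgeR estimates with 95% intervals, filled where the adjusted P was under 0.05, grey ticks the 15 alternative fits, and the grey band the middle 50% of all genes tested (-0.14 to 0.16). Only Slc12a5 and Slc12a7 lie outside the band in every fit.

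To compare levels between genes, CPM were divided by exon length. In WT, Slc12a4 was highest at 17.5 ± 0.55 CPM per kb (SD, n = 3). Wnk2 (15.8 ± 0.252), Oxsr1 (15.5 ± 0.191) and Wnk1 (15.2 ± 0.398) came next on this scale, with overlapping libraries among these 3 and none above the lowest library of Slc12a4. Slc12a2 (11.9 ± 0.473) and Stk39 (11.5 ± 0.159) formed the next pair and also overlapped. At lower levels were Slc12a5 (4.87 ± 0.167), Wnk3 (4.35 ± 0.1) and Slc12a7 (3.33 ± 0.246 CPM per kb), whose libraries did not overlap one another. In Fmr1-KO, Slc12a5 (2.29 ± 0.07 CPM per kb) lay below Slc12a7 (4.32 ± 0.113) and was the lowest of the 9. The order depends on the length used: per kb of the longest coding transcript, Wnk1 was highest in WT at 30.7 ± 0.802 CPM per kb, and Slc12a7 (8.20 ± 0.606) was already above Slc12a5 (6.02 ± 0.206) there.

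The 3 KCC genes described here together amounted to 24.98 to 26.42 CPM per kb in the WT libraries and 22.5 to 22.7 CPM per kb in the Fmr1-KO libraries, with no overlap. Within this sum, Slc12a5 made up 19.0% ± 0.99 in WT and 10.1% ± 0.27 in Fmr1-KO (SD, n = 3 each). Slc12a7 made up 12.9% ± 0.61 in WT and 19.1% ± 0.42 in Fmr1-KO, and Slc12a4 the largest part, 68.1% ± 0.47 and 70.8% ± 0.65 (SD, n = 3 each). With the longest coding transcript as length, the share of Slc12a5 was 17.8% ± 1.0 in WT and 9.01% ± 0.21 in Fmr1-KO, that of Slc12a7 24.2% ± 1.0 and 33.8% ± 0.6, and that of Slc12a4 58.0% ± 0.31 and 57.2% ± 0.77 (SD, n = 3 each), so the direction for Slc12a4 depends on the length used. Under either length, the mean share of the neuronal KCC2 was lower and that of KCC4 higher in Fmr1-KO. Among the 4 WNK genes, Wnk1 (42.6% ± 0.85 in WT, 44.5% ± 1.3 in Fmr1-KO) and Wnk2 (44.2% ± 0.99 and 41.5% ± 1.9) held similar shares of the level per kb of merged exons, and Wnk4 about 1.06% in both genotypes (SD, n = 3 each). This also depends on the length used. Per kb of the longest coding transcript, Wnk1 was above Wnk2, at 30.7 against 19.45 CPM per kb in WT and 33.32 against 18.95 in Fmr1-KO.

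**Figure D4:**
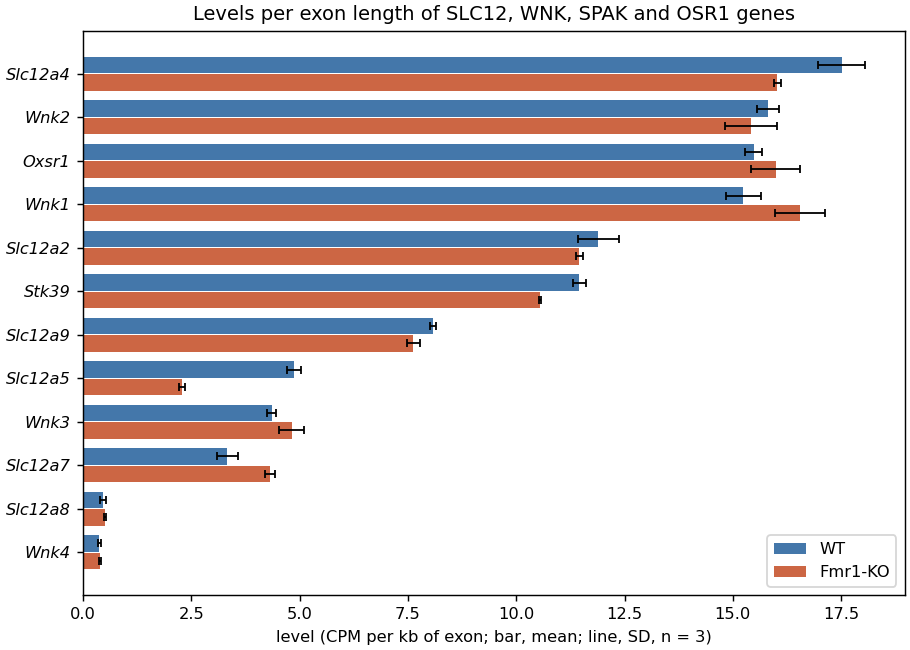
Level in CPM per kb of merged exons (horizontal axis, from 0) of the 9 genes and of 3 other SLC12 and WNK genes, ordered by the WT mean; bars give means and lines the SD (n = 3). The Fmr1-KO bar of Slc12a5 is at 2.29 against 4.87 in WT, while most other pairs of bars are nearly level.

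The rest of both families was measured too. Of 5 further SLC12 and WNK genes on the list, 3 had enough counts to be tested and 0 were called by edgeR or DESeq2. Their number at an unadjusted P under 0.05 in edgeR was also 0. Slc12a9, an SLC12 member of uncertain transport function, was at 40.5 ± 0.357 CPM in WT and 38.3 ± 0.724 CPM in Fmr1-KO (adjusted P 0.126 by edgeR). Slc12a8 (2.05 ± 0.297 and 2.29 ± 0.124 CPM) and Wnk4, a WNK kinase of the kidney (1.58 ± 0.154 and 1.63 ± 0.0929 CPM), were scarce (SD, n = 3 per genotype). Slc12a1 and Slc12a3, which encode the kidney transporters NKCC2 and NCC, had 2 to 5 and 5 to 9 counts per library.

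Other genes of the pathway were taken from lists and read against a median log2 fold-change of 0.01 over all genes tested. Calls in these and the following lists are read against the shares of all genes tested, 21.9% lower and 20.7% higher. Among genes of at least 10 CPM, 51.0% were called in either direction. Of 16 regulators of the WNK cascade, 7 were lower and 3 higher (median -0.07). Klhl2, an adaptor through which CUL3 ubiquitin ligase marks WNK kinases for degradation, was at 99.6 ± 2.91 CPM in WT and 65.3 ± 0.218 CPM in Fmr1-KO (SD, 3 libraries each; log2 fold-change -0.61, adjusted P 1.53e-11 by edgeR). Sgk1, a kinase that acts with this cascade in ion transport, had a log2 fold-change of -0.50. Nedd4l, a ubiquitin ligase inhibited by SGK1, and Cab39l, a relative of the MO25 scaffold that activates SPAK and OSR1, rose by 0.34 and 0.25 on the log2 scale. All 4 passed by edgeR with adjusted P of at most 0.000678.

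Of 16 partners and regulators of KCC2, 7 were lower and 2 higher (median -0.08). Prkcb, which encodes a protein kinase C isoform, and Epb41l1, which encodes the cytoskeletal protein 4.1N that binds KCC2, had the largest decreases among those described of at least 10 CPM. Prkcb was at 85.2 ± 2.35 CPM in WT and 46.7 ± 1.78 CPM in Fmr1-KO (SD, 3 libraries each; -0.87 on the log2 scale, adjusted P 3.80e-13 by edgeR). Epb41l1 was at 213 ± 2.46 and 144 ± 3.92 CPM (SD, 3 libraries each; -0.56 on the log2 scale, adjusted P 7.52e-12 by edgeR). Grik2, a kainate receptor subunit that binds KCC2, and Ntrk2, the receptor of BDNF, were higher by 0.23 and 0.17 on the log2 scale. Further regulators were singled out after their values had been seen. Bdnf was lower, at 5.17 ± 0.0925 CPM in WT and 3.79 ± 0.245 CPM in Fmr1-KO (SD, n = 3 each, log2 fold-change -0.44, adjusted P 0.00178 by edgeR). Egr4, a transcription factor known to act on the KCC2 gene, was scarce, at 0.793 ± 0.138 CPM in WT and 0.141 ± 0.0656 CPM in Fmr1-KO (SD, n = 3 each; log2 fold-change -2.44, adjusted P 1.35e-05 by edgeR). Rest, a repressor of neuronal genes, and Usf1, which binds E-boxes, did not pass, with log2 fold-changes of 0.05 and 0.04 (adjusted P 0.429 and 0.426 by edgeR).

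The ion gradients and channels with which the cotransporters work were included as well. Of 4 genes for subunits of Na,K-ATPase, which maintains the sodium and potassium gradients, 2 were lower and 2 did not pass (median -0.05). Atp1b1 and Atp1b2, which encode beta subunits, had log2 fold-changes of -0.44 and -0.09 (adjusted P 2.44e-10 and 0.0183 by edgeR). Of 12 GABA-A receptor subunits, through which chloride flows, 9 were lower and 3 did not pass (median -0.42), and Gabra5 and Gabra3 had log2 fold-changes of -1.28 and -0.53 (adjusted P 1.02e-14 and 2.16e-06). Of 17 other chloride and bicarbonate transport genes tested, 7 were lower and 1 higher (median -0.09). Slc4a10 and Slc4a4, which carry sodium and bicarbonate, had log2 fold-changes of -0.21 and -0.20, and Lrrc8c, a subunit of the volume-regulated anion channel, one of 0.16 (adjusted P at most 0.00526 by edgeR).

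**Figure D5:**
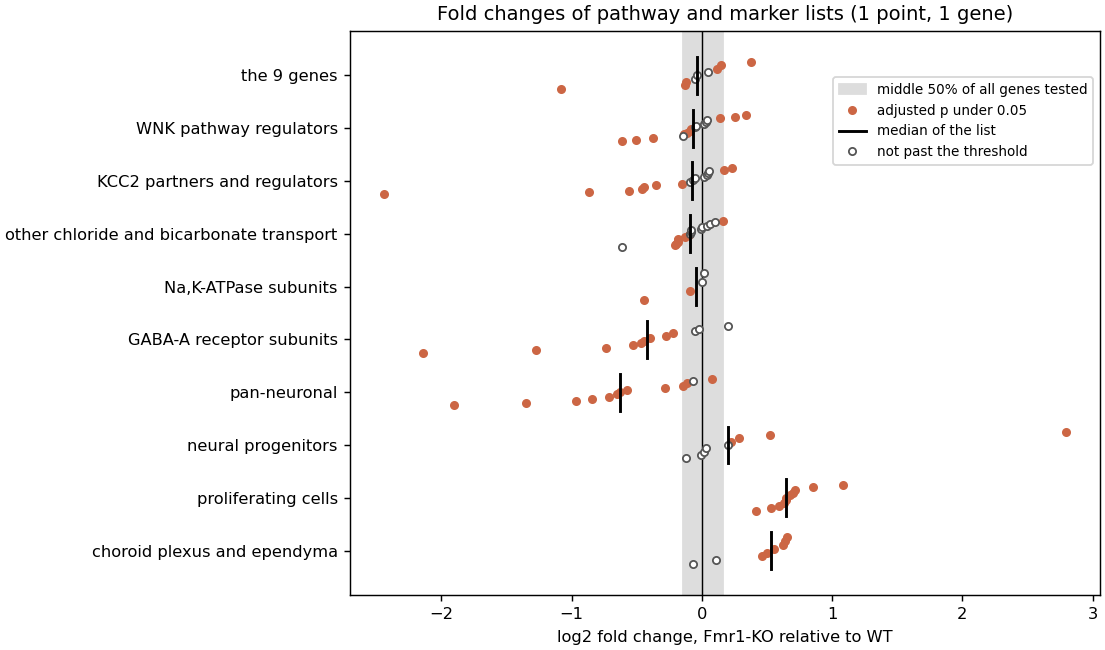
Log2 fold-change in Fmr1-KO relative to WT (horizontal axis) of the 9 genes and of each tested gene in the pathway lists and in the pan-neuronal, progenitor, proliferation and choroid plexus lists. Other marker lists are not drawn. Filled points passed an adjusted P of 0.05, black bars are list medians, and the grey band is the middle 50% of all genes tested. The medians of the pan-neuronal (-0.63) and GABA-A receptor (-0.42) lists lie left of the band. Those of the proliferation (0.65), choroid plexus (0.53) and progenitor (0.20) lists lie right of it.

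Finally, genes with the most similar pattern over the 6 libraries were sought among 10754 genes of at least 10 CPM, by the root mean square distance between log2 CPM profiles centred on the WT mean. The 3 genes nearest to Slc12a5 were Kcnq5, which encodes a potassium channel subunit, Cxcl14, a chemokine, and Ppp2r2c, a regulatory subunit of protein phosphatase 2A. Their distances were 0.0225, 0.0465 and 0.0465, and their log2 fold-changes -1.11, -1.04 and -1.12. Nearest to Slc12a2 were Parl, Rhbdd2 and Rpusd2, at distances of 0.00904, 0.0122 and 0.0126, with log2 fold-changes of -0.04, -0.05 and -0.05. With 6 libraries in 2 genotypes, such likeness describes mainly the size of the difference between genotypes.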

How the data were processed

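PolyA RNA of 6 libraries, 3 WT and 3 Fmr1-KO, was sequenced by the authors as single-end reads. The authors deposited raw counts per gene name, with no normalization. Per the labels and methods, FastP trimmed the reads and STAR 2.7.6a aligned them to GRCm38.p6. Exons were counted with reverse-stranded featureCounts, so antisense neighbours are separated, but isoforms are not. The labels give its Subread version as 2.0.1, whereas the study's methods name another. Every table column was mapped to a labelled sample.

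Counts were fitted here with edgeR 4.0.16 (R 4.3.3): filterByExpr, TMM, glmQLFit and glmQLFTest on the whole table, 2-sided, genotype as the only term, Benjamini-Hochberg adjustment over 16976 genes, calls at an adjusted P under 0.05. SE is the log2 fold-change divided by the square root of F. The code was tested on simulated data. CPM are TMM-scaled. Library totals of 30348556 to 35126207 give a counting error of at most 4.37% for the 9 genes; this covers counting error only. Gene models and exon lengths are those of GENCODE M21 (GRCm38), and sequences those of RefSeq (GRCm38.p6). Ratios were compared by exact permutation tests over libraries.

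The genes and lists were chosen with earlier results of these data known. Some genes of these families and pathways are not reported here and were left out of the lists, counts and sums. Named genes are Fmr1, the 9 genes, other tested SLC12 and WNK genes, up to 2 called genes per direction and list of at least 10 CPM with the largest changes, the 3 nearest profiles, and Xist. Bdnf, Egr4, Rest, Usf1, Dcx, Nefl, Nefm, Gfap, Eif2s3y and the untested Slc12a1 and Slc12a3 fall outside this rule and were named after their values were seen. Lists were WNK pathway regulators, KCC2 partners and regulators, chloride and bicarbonate transport, Na,K-ATPase and GABA-A receptor subunits, and markers of neurons, excitatory neurons, GABAergic interneurons, progenitors, proliferating cells, microglia, astrocytes, the oligodendrocyte lineage, choroid plexus and ependyma, vessels (endothelial and mural), erythroid cells and sex. Alternatives were DESeq2 1.42.0, the authors' tool, RLE and upper-quartile normalization, library totals, a filter at 5 CPM and 10 counts or none, omission of single libraries or of the 20 most abundant genes, the replicate number as a block, and a minimum fold of 1.2.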

Additional observations from a re-analysis of the deposited data

How the results depend on the processing

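Slc12a5 was called lower and Slc12a7 higher under every alternative listed in the methods; without 1 library at a time their log2 fold-changes ran from -1.11 to -1.06 and from 0.32 to 0.42. Requiring a fold above 1.2, a stricter test, called 1 of the 9 genes lower and 1 higher, 15 pathway genes lower and 1 higher in place of 32 and 6, and 1340 genes lower and 883 higher overall; Slc12a4 (-0.13), Wnk1 (0.12), Wnk3 (0.14) and Stk39 (-0.12) then no longer passed. Scaling by library totals alone also lost Stk39 (-0.0922, adjusted P 0.0539 in edgeR). In the fits that each left out 1 library, Slc12a4 ran from -0.15 to -0.11 and was lost without WT replicate 1 (adjusted P 0.0509 in edgeR), and Wnk3 ran from 0.10 to 0.18 and was lost when WT replicate 3 (0.0610) or Fmr1-KO replicate 2 (0.0913) was omitted; the cause was not tested. With 1 library omitted, the value of Wnk4, near 0, changed sign (-0.0107 to 0.124, and -0.00549 when Fmr1-KO replicate 2 was omitted). The Slc12a5 to Slc12a2 ratio kept its direction in all alternatives (log2 difference -1.07 to -0.98). Replicate numbers did not pair the libraries (their deviations correlated at -0.0496, 0.0469 and 0.000739); with a replicate block, Slc12a5 had a log2 fold-change of -1.09 and no call among the 9 genes changed. The 3 genes that did not pass stayed so without any 1 library, though their values moved by over 1.5 times: Slc12a2 from -0.0854 (adjusted P 0.0575 without WT replicate 2) to -0.0299, Wnk2 from -0.0574 to -0.00613 and Oxsr1 from 0.0172 to 0.0637. The 3 libraries per genotype cannot bring a permutation P below 0.1.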

Other observations

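Markers of further cell types were counted in the same fit, in which 21.9% of all genes tested were called lower and 20.7% higher. Of 10 oligodendrocyte lineage genes, 10 were called lower in Fmr1-KO (median log2 fold-change -0.73), with sums of 2346 to 2551 CPM in WT and 1344 to 1448 CPM in Fmr1-KO. Of 8 microglia genes, 7 were lower (median -0.78; 203 to 224 CPM in WT and 114 to 129 CPM in Fmr1-KO). Of 8 astrocyte genes, 5 were lower and 2 higher (median -0.17; 4294 to 4426 and 3690 to 4033 CPM). Excitatory neuron genes were split, with 3 lower and 5 higher of 8 (median 0.12; 600.2 to 611 and 591 to 622 CPM), as were GABAergic interneuron genes, with 5 lower and 4 higher of 9 (median -0.24; 755 to 787 and 788 to 866 CPM). Of 7 tested endothelial and mural genes, 2 were lower and 3 higher (median 0.35; 196 to 216 and 198 to 214 CPM). The 2 tested erythroid genes were both lower, at sums of 1.42 to 1.71 CPM in WT and 0.719 to 0.984 CPM in Fmr1-KO. Of the sex-linked genes, Xist was higher, while 3 of the 4 Y-linked genes were lower, with Eif2s3y at 39.9 ± 2.02 CPM in WT and 28.9 ± 2.51 CPM in Fmr1-KO (SD, n = 3 each). The part of these shifts in the levels of the chloride cotransporter and kinase genes was not tested.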
